A study of Mus musculus with 9 samples.

Results

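Of the 47480 gene rows in the count table, 10 were taken by name for their part in iron uptake, storage and export. Tfrc, Slc11a2 and Slc25a37 bring iron into the cell or the mitochondrion, and Slc40a1 carries it out. Fth1, Ftl1 and Ncoa4 store it or release it from store, Hmox1 frees it from heme, and Aco1 and Ireb2 sense it. All 10 passed the filter on low counts. RNA was sequenced in 9 libraries from primary hematopoietic cells of C57BL/6 mice. The MP cells, which the labels name only as progenitor cells, gave 3 polysomal and 2 total RNA libraries, and the LSK cells, labelled stem cells, gave 2 of each. All cells had been held with 100 ug/ml cycloheximide for 10 min, which stops ribosomes on their messages. Polysomal RNA was fraction 7 of 10 from a sucrose gradient, and total RNA was kept back from the lysate before the gradient. No agent other than cycloheximide is named and no genotype beyond the strain, and nothing in the labels says which libraries came from separate mice, so p-values rest on a spread that may be only technical.

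Iron reaches most marrow cells bound to transferrin, which the receptor encoded by Tfrc takes in. Inside the cell, ferritin holds spare iron in a shell of heavy and light chains, and ferroportin, the product of Slc40a1, is the known iron exporter of animal cells. The proteins made from Aco1 and Ireb2 bind a short hairpin, the iron-responsive element, when iron is scarce. In the 5′ UTR the bound hairpin blocks the start of translation, and in the 3′ UTR of Tfrc it protects the message from decay. Developing red cells use most of the body's iron for heme, so these genes are known as part of the red cell program in marrow.

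The hairpins were searched in the annotated UTRs of GENCODE M21 transcripts (GRCm38) on the message strand as a C, then 5 bases of any kind, the loop CAGTGN and 5 more bases, where both runs of 5 had to pair in full, G with U allowed. Among 20597 genes with a 5′ UTR 31 held such a match, or 0.151%, and among 20979 genes with a 3′ UTR 129 did, or 0.615%. Of the 10 iron genes, Slc40a1, Fth1 and Ftl1 held 1 in the 5′ UTR, and Tfrc held 4 in the 3′ UTR. With at least 4 of 5 pairs, which 4.16% of genes with a 3′ UTR reach, Slc11a2 was added. They are shown because the results are ordered by them. Each is 27 bases, 5′ to 3′ on the message strand, with the 6-base loop in capitals. The Fth1 hairpin lies at chr19:9982733-9982759 (plus strand), that of Ftl1 at chr7:45459780-45459806 (minus), that of Slc40a1 at chr1:45925466-45925492 (minus) and that of Slc11a2 at chr15:100395154-100395180 (minus). Those of Tfrc lie on the plus strand at chr16:32631220-32631246, chr16:32631599-32631625, chr16:32631664-32631690 and chr16:32631711-32631737 and are given in that order.
Fth1 5′ UTR: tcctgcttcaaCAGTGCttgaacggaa
Ftl1 5′ UTR: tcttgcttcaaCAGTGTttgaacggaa
Slc40a1 5′ UTR: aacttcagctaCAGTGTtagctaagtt
Tfrc 3′ UTR: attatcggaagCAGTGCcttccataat
Tfrc 3′ UTR: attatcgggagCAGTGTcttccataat
Tfrc 3′ UTR: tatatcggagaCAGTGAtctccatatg
Tfrc 3′ UTR: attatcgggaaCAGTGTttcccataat
Slc11a2 3′ UTR: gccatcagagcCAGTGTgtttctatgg
A match is a description of the letters and not a measured binding site, and no match was found in the annotated UTRs of Hmox1, Aco1, Ireb2, Slc25a37 and Ncoa4.

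Libraries held between 27342343 and 34807735 counts, so depth was similar. The label of LSK cells was checked with Ly6a, the gene of the Sca-1 antigen used to sort them, which was at 0.159 to 1.26 CPM in MP libraries and at 50.2 to 110 CPM in LSK libraries. CPM are counts divided by the scaled library size. Genes of red cell progenitors took 0.467% to 0.681% of the counts in MP libraries and 0.0577% to 0.1000% in LSK libraries. Car1 alone held most of these counts in every library, at 3013 to 5292 CPM in MP libraries and at 278 to 543 CPM in LSK libraries. Maturing neutrophil genes took 1.59% of counts in MP polysomal 1 and 1.36% in MP total 1, against at most 0.252% in the other 7 libraries, and B cell genes took 0.296% in LSK polysomal 2 and 0.635% in LSK total 2, against at most 0.0938% in the other 7. Results are therefore also given without these pairs. In these bulk samples a difference in the number of cells of a type and a difference in RNA per cell cannot be told apart.

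Averaged over fractions, Tfrc and Slc11a2, which serve iron uptake, and Slc40a1, which serves export, were higher in MP than in LSK cells. Slc25a37, which serves uptake into mitochondria, and the storage, heme and sensor genes did not pass the test. The test was edgeR's quasi-likelihood test over 16426 genes and all 9 libraries, and a gene is called where its p, adjusted over all those genes after Benjamini and Hochberg, was under 0.05. In total RNA 1 of the 10 genes was called, Slc40a1, which was higher, where 0.274% of all genes tested were called higher and 0.816% lower. In polysomal RNA 2 were called, Tfrc and Slc40a1, both higher, where 0.524% of all genes were called higher and 2.83% lower. Averaged over both fractions Slc11a2 joined them, so 3 of 10 were higher and none lower, against 2.72% of all genes higher and 7.37% lower. Total and polysomal libraries may share lysates, so p-values of the averaged comparison may be too small. The levels of Tfrc, Slc40a1 and Slc11a2 in all 5 MP libraries lay above those in all 4 LSK libraries, as did 4.34% of all genes, while 8.51% lay below and none of the 10 did. The median log2 change of the 10 genes was 0.72 in total RNA, 0.26 in polysomal RNA and 0.10 averaged, beside medians of −0.01, −0.03 and −0.01 over all genes.

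**Figure D1:**
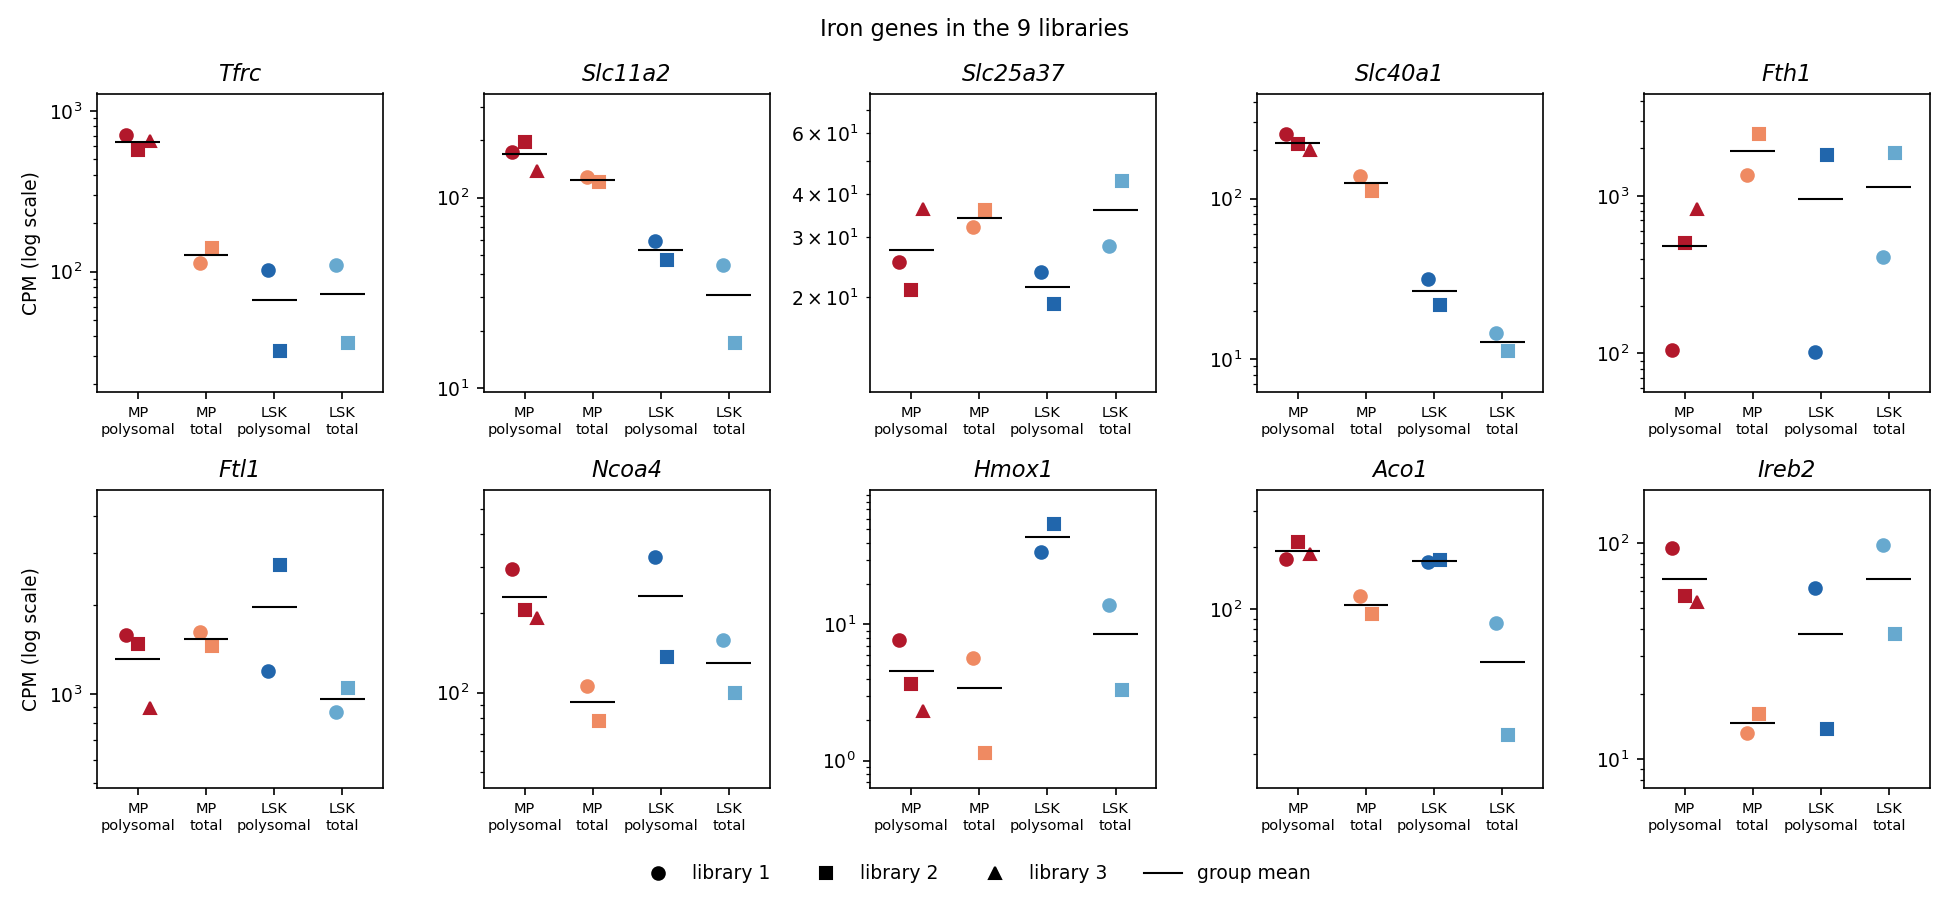
CPM (log scale) of the 10 iron genes in the 9 libraries, by group, with symbols for the library number and a bar for the group mean. Tfrc stands highest in the 3 MP polysomal libraries, Slc40a1 and Slc11a2 are higher in all 5 MP libraries than in all 4 LSK libraries, and Fth1 differs by up to 17.6-fold between libraries of 1 group.

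Tfrc, the transferrin receptor gene (chr16:32608920-32632794, plus strand), was at 711, 568 and 645 CPM in MP polysomal RNA, against 102 and 32.3 CPM in LSK polysomal RNA. In total RNA it was at 113 and 140 CPM in MP cells, against 110 and 35.9 CPM in LSK cells. The polysomal libraries of MP cells stood above all others, and in total RNA the lower MP library was just above the higher LSK library. The mean was 9.57-fold higher in MP than in LSK cells in polysomal RNA (log2 change 3.26, SE 0.70, edgeR quasi-likelihood adjusted p = 0.0385) and 1.73-fold higher in total RNA (log2 change 0.79, SE 0.66, adjusted p = 0.609). Averaged over fractions the log2 change was 2.02 (SE 0.47, adjusted p = 0.0259). The difference between the log2 changes in polysomal and in total RNA was 2.47 (SE 0.92), which did not pass the test (edgeR adjusted p = 0.877). The polysomal call was lost without any single MP polysomal library (adjusted p = 0.109, 0.119 and 0.116 without 1, 2 and 3), either MP total library (0.0559 and 0.0558) or LSK polysomal 2 (0.164). The averaged call was lost without any single MP library or without LSK polysomal 2 or LSK total 2, with adjusted p-values of 0.0526 to 0.0837. The log2 change kept its sign in all alternatives, between 2.66 and 4.43 in polysomal RNA, the highest without LSK polysomal 1, where Tfrc was at 102 CPM.

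Slc11a2, which encodes the metal transporter DMT1 that moves iron out of endosomes, was at 174, 195 and 137 CPM in MP polysomal RNA, against 59.4 and 47.3 CPM in LSK polysomal RNA. In total RNA it was at 128 and 120 CPM in MP cells, against 44.2 and 17.3 CPM in LSK cells. The groups did not overlap in either fraction, as for 15% of all genes in polysomal RNA and 22.8% in total RNA in that direction. Its log2 change was 1.84 averaged over fractions (SE 0.38, edgeR adjusted p = 0.0167). Taken alone, neither polysomal RNA (1.66, SE 0.52, adjusted p = 0.125) nor total RNA (2.01, SE 0.56, adjusted p = 0.109) passed the test. The averaged call was lost without MP polysomal 2 (adjusted p = 0.0526), MP total 1 (0.0707) or MP total 2 (0.0589). An exon of the gene overlaps one of Gm5475 on the other strand, and since the strand setting of the counting is not given, reads of the pair may be mixed.

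Slc25a37, the gene of mitoferrin 1, which carries iron into mitochondria of developing red cells, did not pass the test in any comparison. It ranged from 21.0 to 36.2 CPM in MP libraries and from 19.1 to 43.6 CPM in LSK libraries, and the populations overlapped in both fractions. The interval of its averaged log2 change ran from −0.68 to 0.96 (95%), and exons of antisense genes overlap its own.

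Slc40a1, the ferroportin gene (chr1:45908068-45926523, minus strand), was at 252, 218 and 200 CPM in MP polysomal RNA, against 31.7 and 21.7 CPM in LSK polysomal RNA. In total RNA it was at 138 and 112 CPM in MP cells, against 14.4 and 11.2 CPM in LSK cells. It was the only one of the 10 genes called in each fraction on its own. The mean was 8.36-fold higher in MP than in LSK cells in polysomal RNA (log2 change 3.06, SE 0.48, edgeR adjusted p = 0.0150) and 9.72-fold higher in total RNA (log2 change 3.28, SE 0.50, adjusted p = 0.0326). The difference between these changes was −0.22 (95% interval −1.61 to 1.17). The averaged log2 change of 3.17 (SE 0.35, adjusted p = 0.00153) stayed called in 18 of 18 alternatives. The call in polysomal RNA was lost without any single MP polysomal library (adjusted p = 0.0657, 0.0896 and 0.0715 without 1, 2 and 3) or LSK polysomal 2 (0.0649). That in total RNA was lost without any single MP polysomal library (adjusted p = 0.0618, 0.0742 and 0.0595), either MP total library (0.28 and 0.217) or either LSK total library (0.0931 and 0.11).

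Markers of other cell types were measured beside these genes. Of 13 red cell progenitor genes, 7 were called higher in MP cells in polysomal RNA, against 0.524% of all genes higher and 2.83% lower. In total RNA 6 were, against 0.274% and 0.816%, and averaged over fractions 9 were, against 2.72% and 7.37%. None was called lower. The globin genes on this list overlapped between the populations, with Hbb-bs at 17.5 to 81.7 CPM in MP libraries and at 4.61 to 74.5 CPM in LSK libraries. Macrophages also express Slc40a1 and Hmox1, and of 12 macrophage genes tested 1, Vcam1, was higher in total RNA and 3, C1qa, C1qb and Spic, were lower in polysomal RNA. Averaged over fractions, 2 were higher, Vcam1 and Csf1r, and 2 were lower, C1qb and Spic, against 2.72% of all genes higher and 7.37% lower. Csf1r, the receptor gene for a growth factor of monocytes and macrophages, was at 78.6 to 178 CPM in MP libraries and at 6.56 to 42.0 CPM in LSK libraries (log2 change 2.34, SE 0.56, edgeR adjusted p = 0.0283). Adgre1, the gene of the F4/80 antigen, was at 2.76 to 14.3 CPM in MP libraries and at 0.424 to 5.41 CPM in LSK libraries and did not pass the test (1.64, SE 0.55, adjusted p = 0.0955). C1qb, a complement gene of macrophages, was at 0.191 to 1.23 CPM in MP libraries and at 1.15 to 26.95 CPM in LSK libraries. Timd4 and Marco, also on the macrophage list, were at 0 or up to 0.465 CPM in every library. The macrophage list took 0.0187% to 0.0620% of counts in MP libraries and 0.00706% to 0.0205% in LSK libraries, and Vcam1, which other cells express too, gave up to 452 CPM of it. Without both MP libraries numbered 1, which hold the neutrophil signal, the averaged log2 change was 2.09 for Tfrc (edgeR adjusted p = 0.115), 1.84 for Slc11a2 (0.121) and 3.07 for Slc40a1 (0.0309), and in polysomal RNA it was 3.17 for Tfrc (0.15) and 2.97 for Slc40a1 (0.116). Without both LSK libraries numbered 2, which hold the B cell signal, it was 1.43 for Tfrc (0.0402), 1.5 for Slc11a2 (0.0454) and 2.96 for Slc40a1 (0.00648) averaged, and 2.66 for Tfrc (0.0525) and 2.82 for Slc40a1 (0.055) in polysomal RNA. In total RNA Slc40a1 had 3.17 (0.422) and 3.11 (0.0473) without the MP and the LSK pair. The sizes were close to those with all libraries except for Tfrc and Slc11a2 without the LSK pair, where they were lower. The part of red cell progenitors or macrophages in the changes of Tfrc, Slc11a2 and Slc40a1 was not tested.

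**Figure D2:**
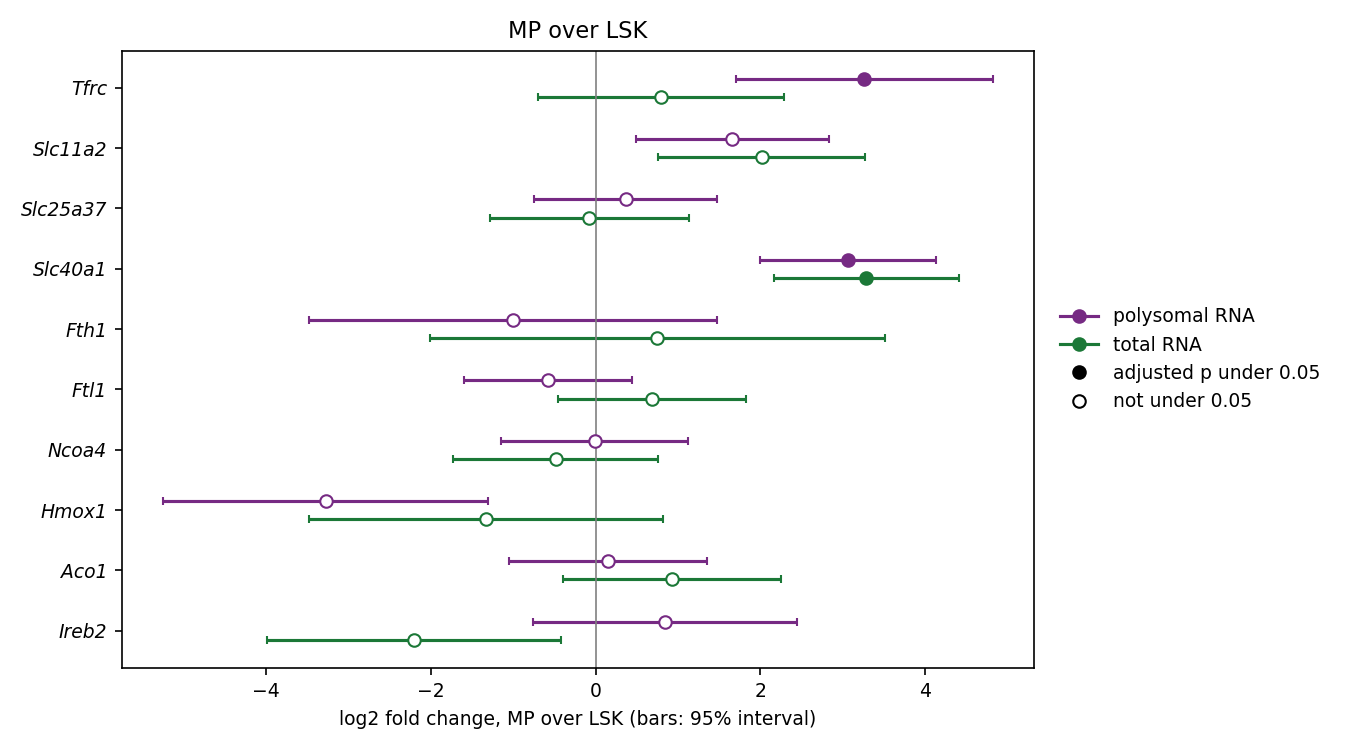
Log2 fold change of each iron gene, MP over LSK, in polysomal RNA (purple) and total RNA (green) from the edgeR fit, with 95% intervals; filled points had an adjusted p under 0.05. Tfrc is called in polysomal RNA and Slc40a1 in both, and the intervals of Fth1 are the widest.

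Neither ferritin gene passed the test between populations, and Fth1 had the largest biological coefficient of variation of the 10 genes, 0.814 beside a median of 0.558 over all genes. Fth1, which encodes the heavy chain that oxidises iron for storage, was at 105, 505 and 824 CPM in MP polysomal RNA, against 103 and 1809 CPM in LSK polysomal RNA. In total RNA it was at 1350 and 2476 CPM in MP cells, against 410 and 1868 CPM in LSK cells. Libraries of 1 group differed by up to 17.6-fold, in LSK polysomal RNA. Its log2 change averaged over fractions was −0.13, with a 95% interval of −1.98 to 1.73, and it reversed under several alternatives. Ftl1, which encodes the light chain, was at 1586, 1472 and 896 CPM in MP polysomal RNA, against 1195 and 2731 CPM in LSK polysomal RNA. In total RNA it was at 1623 and 1455 CPM in MP cells, against 867 and 1049 CPM in LSK cells. The populations overlapped in polysomal RNA and not in total RNA, where MP was the higher, as for 22.8% of all genes. Its averaged log2 change was 0.05 (95% interval −0.71 to 0.82), and −0.16 with library totals alone.

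The ratio of Fth1 to Ftl1 counts was 0.0662, 0.343 and 0.920 in MP polysomal RNA and 0.832 and 1.70 in MP total RNA, against 0.0860 and 0.662 in polysomal RNA of LSK cells and 0.473 and 1.78 in their total RNA. The library numbered 1 had the lowest ratio of its group in all 4 groups. Message length was compared beside it, over 8290 of the 15816 genes with an annotated length, as the median level of messages of up to 1500 bases minus that of messages over 4000 bases, relative to each gene's mean. It was −0.21, −0.23 and −0.80 (log2) in MP polysomal RNA and 0.64 and 0.45 in MP total RNA, against −0.30 and 0.06 in polysomal RNA of LSK cells and −0.18 and 0.50 in their total RNA. MP polysomal 3 had the lowest length value and the highest ferritin ratio of its group, and in MP total RNA too the library with the higher ratio had the lower length value. In both LSK groups the measures had the same order. Ftl1, with 968 bases, counted as a short message, and Fth1, with 2062, fell between the 2 length limits. The part of message length in the ferritin ratio was not tested. Rows named as ferritin copies held 175 to 838 counts a library, at most 1.17% of the counts of Fth1 and Ftl1, mostly from Ftl2-ps, and how reads were split between copies is not given in the sources used here. Exons of Ftl1 overlap those of Gm22133 and, on the other strand, Gm10252.

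**Figure D3:**
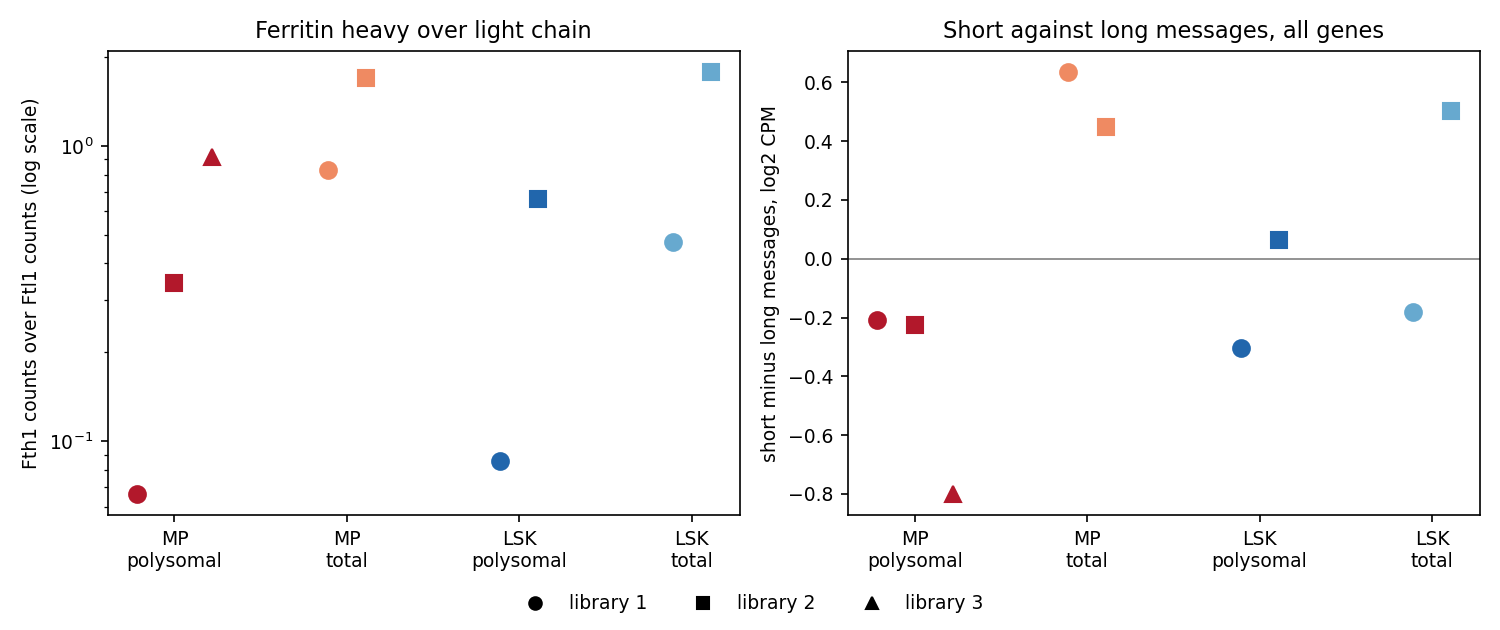
Left, Fth1 counts over Ftl1 counts (log scale) in each library; right, the median log2 CPM of short minus long messages relative to each gene's mean. Symbols mark the library number. The ratio runs from 0.0662 in MP polysomal 1 to 1.78 in LSK total 2, and library 1 is the lowest in every group.

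Ncoa4, the receptor that carries ferritin to lysosomes for release of its iron, was at 296, 206 and 193 CPM in MP polysomal RNA, against 329 and 137 CPM in LSK polysomal RNA. It was at 106 and 78.4 CPM in MP total RNA, against 159 and 99.4 CPM in LSK total RNA. The populations overlapped in both fractions, and its averaged log2 change was −0.25 (95% interval −1.09 to 0.59).

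Hmox1, which encodes the heme oxygenase that opens heme and frees its iron, had the largest negative averaged change of the 10 genes but did not pass the test. It was at 7.72, 3.7 and 2.33 CPM in MP polysomal RNA, against 33.9 and 54.5 CPM in LSK polysomal RNA, without overlap, as for 17.4% of all genes in that direction. In total RNA it was at 5.70 and 1.14 CPM in MP cells, against 13.9 and 3.29 CPM in LSK cells, with overlap. The log2 change was −3.27 in polysomal RNA (SE 0.88, edgeR adjusted p = 0.0795) and −2.30 averaged over fractions (SE 0.66, adjusted p = 0.0569). In polysomal RNA it was called under 3 of 19 alternatives, by DESeq2 (adjusted p = 0.00473), without a filter (0.00119) and by limma (0.0459), and the averaged change under 7 of 18. The same LSK polysomal libraries held the highest levels of the macrophage genes C1qa, C1qb and C1qc, and also of Spic, Cd5l, Mertk and Siglec1. C1qb was at 6.08 and 26.95 CPM there and at 0.191 to 1.90 CPM in the other 7 libraries. Csf1r and Vcam1 went the other way. Csf1r was at 42.0 and 23.2 CPM in LSK polysomal RNA, against 78.6 to 178 CPM in MP libraries. Vcam1 was at 58.4 and 21.2 CPM, against 72.8 to 452 CPM. Adgre1, Cd68 and Cd163, also on the macrophage list, overlapped between LSK polysomal RNA and MP libraries. Adgre1 was at 5.41 and 3.86 CPM in LSK polysomal RNA, against 2.76 to 14.3 CPM in MP libraries. Cd68 was at 26.7 and 44.5 CPM, against 19.3 to 37.9 CPM. Cd163 was at 32.4 and 10.8 CPM, against 8.70 to 29.0 CPM, and was highest in LSK total 1, at 38.0 CPM. The part of macrophages in the level of Hmox1 was not tested.

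Neither iron sensor gene passed the test between populations. Aco1, which encodes a protein that is an aconitase when iron is ample and binds the hairpin when it is not, was at 175, 212 and 186 CPM in MP polysomal RNA, against 170 and 174 CPM in LSK polysomal RNA. It was at 116 and 94.6 CPM in MP total RNA, against 86.0 and 24.6 CPM in LSK total RNA. All 5 polysomal libraries were higher than all 4 total libraries, as for 1.34% of all genes, while the opposite held for 4.9% and none of the 10. Ireb2, which encodes the sister protein that is degraded when iron is ample, was at 94.6, 57.0 and 53.4 CPM in MP polysomal RNA, against 62.1 and 13.9 CPM in LSK polysomal RNA. In total RNA the order was the other way, with 13.3 and 16.2 CPM in MP cells, against 98.2 and 37.8 CPM in LSK cells, and the groups did not overlap, as for 28.5% of all genes in that direction. Its log2 change between populations was 0.85 in polysomal RNA (SE 0.71, edgeR adjusted p = 0.601) and −2.20 in total RNA (SE 0.80, adjusted p = 0.195). The difference of 3.05 between these changes (SE 1.07) did not pass the test (edgeR adjusted p = 0.877).

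Polysomal RNA was compared with total RNA to ask whether messages with a hairpin were held on or off polysomes. No gene of all 16426 passed by edgeR in either population or in the interaction (0% called), although 1243 genes in MP cells, 1981 in LSK cells and 869 in the interaction had an unadjusted p under 0.05. DESeq2 called 30 genes in MP cells, 433 in LSK cells and 1 in the interaction, and limma on the authors' normalised values called 0, 486 and 0. No iron gene of the 10 was called by any of these. Log2 changes are therefore given with their 95% intervals and no direction is claimed.

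Among the messages with a 5′ hairpin, Fth1 averaged 478 CPM ± 360 (SD, n = 3) in MP polysomal RNA and 1913 CPM ± 797 (SD, n = 2) in MP total RNA, a log2 change of −2.0 with a 95% interval of −4.49 to 0.49. In LSK cells its change was −0.25, with an interval of −3.0 to 2.49. Both intervals hold 0, although all 3 MP polysomal libraries lay under both MP total libraries, as for 16.4% of all genes. The log2 change of Ftl1 was −0.22 in MP cells (interval −1.25 to 0.80). In LSK cells the change of Ftl1 was 1.04 (interval −0.11 to 2.18), and its polysomal libraries lay above the total ones, as for 16.2% of all genes. For Slc40a1 it was 0.84 in MP cells (interval −0.12 to 1.8) and 1.06 in LSK cells (interval 0.02 to 2.10, edgeR adjusted p = 0.406), and its polysomal libraries were above the total ones in both populations, as for 16.3% of all genes in MP cells and 16.2% in LSK cells. The storage and export messages that share the 5′ hairpin thus had point values of either sign.

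With hairpins in the 3′ UTR, Tfrc averaged 641 CPM ± 71.8 (SD, n = 3) in polysomal and 126 CPM ± 19.7 (SD, n = 2) in total RNA of MP cells, 5.07-fold apart, with a log2 change of 2.34 (SE 0.66, 95% interval 0.86 to 3.83, edgeR adjusted p = 0.656). In LSK cells it averaged 67 CPM ± 49.2 in polysomal and 73.1 CPM ± 52.7 in total RNA (SD, n = 2 each), a change of −0.13 with an interval of −1.61 to 1.36. Polysomal libraries did not overlap total libraries in MP cells, where 16.3% of all genes were higher in the same way, and they overlapped in LSK cells. Messages over 4000 bases, among them that of Tfrc with 4890, had a median change of 0.30 in MP and 0.04 in LSK cells, and those of up to 1500 bases had medians of −0.58 and −0.27. The part of message length in these values was not tested. The log2 change of Slc11a2 was 0.44 in MP cells (interval −0.68 to 1.56) and 0.79 in LSK cells (interval −0.43 to 2.01). Its polysomal libraries lay above the total ones in both populations, as for 16.3% of all genes in MP cells and 16.2% in LSK cells.

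Messages without a match ran from −0.84 to 2.37, which held the values of those with a match except that of Fth1 in MP cells. The log2 change of Ireb2 was 2.21 in MP cells (interval 0.51 to 3.91) and −0.84 in LSK cells (interval −2.56 to 0.88). For Aco1 it was 0.86 in MP cells (interval −0.37 to 2.08) and 1.64 in LSK cells (interval 0.29 to 2.98). Ncoa4 had 1.32 in MP cells (interval 0.14 to 2.51) and 0.85 in LSK cells (interval −0.40 to 2.10). Hmox1 had 0.42 in MP cells (interval −1.54 to 2.38) and 2.37 in LSK cells (interval 0.15 to 4.58). Slc25a37 had −0.30 in MP cells (interval −1.40 to 0.79) and −0.75 in LSK cells (interval −1.96 to 0.47), where its polysomal libraries lay under the total ones, as for 20.6% of all genes. In MP cells the polysomal libraries of Ireb2, Aco1 and Ncoa4 lay above the total ones, as for 16.3% of all genes. In LSK cells those of Aco1 and Hmox1 did, as for 16.2%. The median log2 change over the 10 genes was 0.64 in MP cells and 0.82 in LSK cells, beside −0.08 and 0.02 over all genes.

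**Figure D4:**
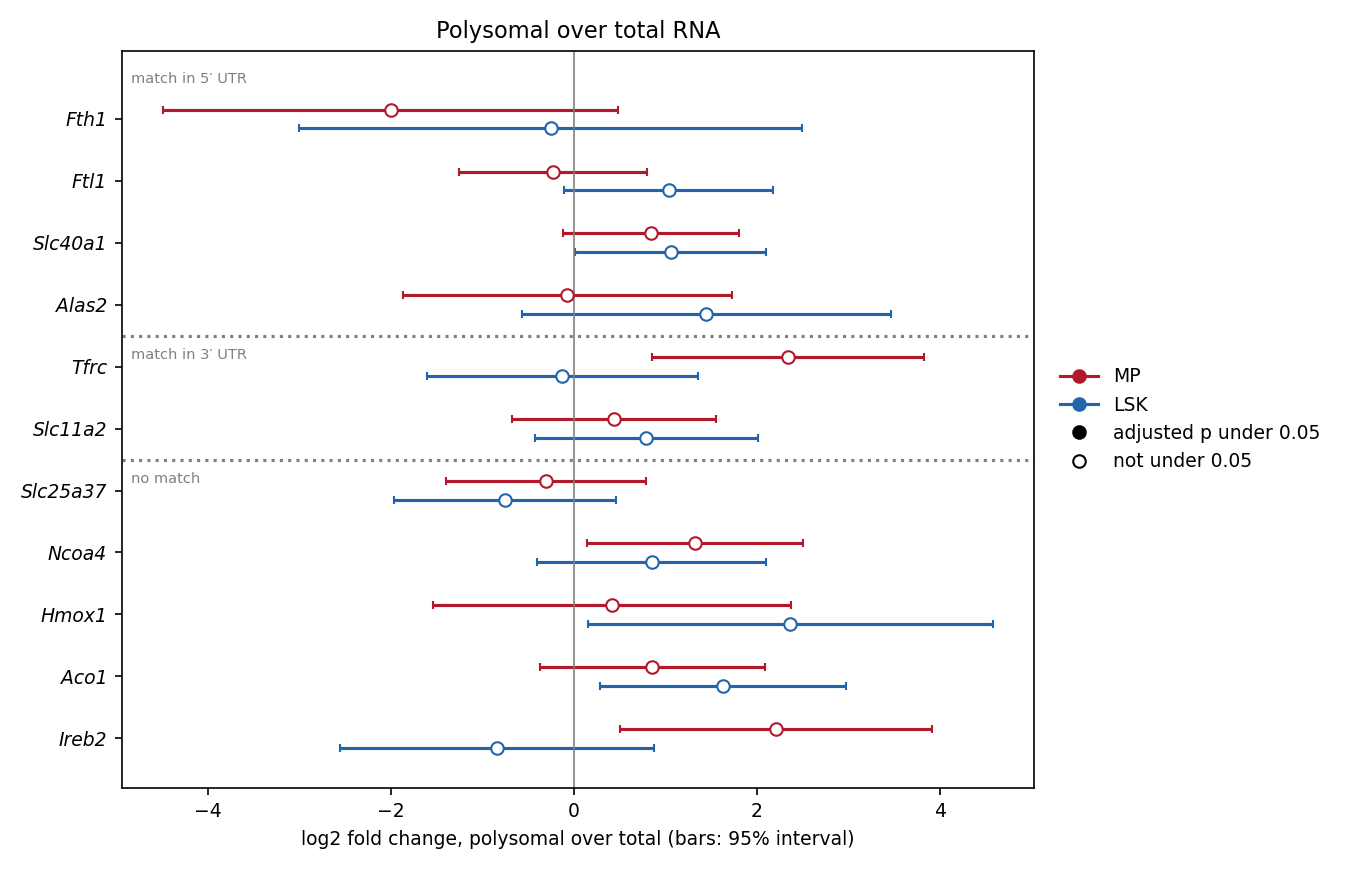
Log2 fold change of polysomal over total RNA in MP (red) and LSK cells (blue) from the edgeR fit, with 95% intervals; open points mark an adjusted p not under 0.05, which all are. Genes are grouped by the hairpin match in the 5′ UTR, the 3′ UTR (for Slc11a2 with 4 of 5 pairs) or none, and the groups overlap in range.

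Levels were compared between genes only as CPM per kilobase of merged exons. In all 4 groups Ftl1 stood first and Fth1 second by mean. Ftl1 averaged 983 CPM per kilobase ± 276 in MP polysomal RNA (SD, n = 3) and 1148 ± 88.5 in MP total RNA, against 1465 ± 811 in LSK polysomal RNA and 715 ± 96.3 in LSK total RNA (SD, n = 2 each). Fth1 averaged 138 ± 104 CPM per kilobase in MP polysomal RNA (SD, n = 3) and 551 ± 230 in MP total RNA, against 276 ± 348 in LSK polysomal RNA and 328 ± 297 in LSK total RNA (SD, n = 2 each), so that its lowest libraries fell among the other genes. Tfrc followed in MP polysomal RNA with 104 ± 11.6 CPM per kilobase (SD, n = 3), within the range of Fth1 there. In LSK polysomal RNA Slc40a1 stood last with 2.97 ± 0.785 CPM per kilobase (SD, n = 2), within the range of Ireb2 and close to Slc25a37. With the longest transcript as the length, Slc40a1 moved up from rank 6 to 4 in MP polysomal RNA and from rank 10 to 8 in LSK polysomal RNA, so the order below the ferritins depends on the length used.

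The patterns of the 3 called genes over the 9 libraries were set beside those of 8818 genes that averaged 10 CPM or more, by Pearson's correlation of log2 CPM. The libraries share groups, so these values only describe the pattern. Slc40a1 was most like Ces2g (0.991), Kel, which encodes a blood group protein of red cells (0.990), and Ampd3 (0.989). Slc11a2 was most like Mylk3 (0.991), Cnr2 (0.984) and Stom, which encodes a protein of the red cell membrane (0.980). Tfrc was most like Daam1 (0.963), Specc1 (0.960) and Ankrd44 (0.959).

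Beyond the 10 genes, 3 lists of other iron genes were examined. None of their members passed in total or polysomal RNA alone. Averaged over fractions, 4 of 29 tested genes of iron and heme transport and breakdown (39 listed) were higher in MP cells and none was lower, against 2.72% and 7.37% of all genes. They were Steap3 (2.12, SE 0.44, edgeR adjusted p = 0.016), Blvrb (2.46, SE 0.52, adjusted p = 0.0178), Lrp1 (2.26, SE 0.52, adjusted p = 0.0255) and Abcb6 (2.00, SE 0.52, adjusted p = 0.039). Steap3 encodes the reductase that acts on iron freed from transferrin in endosomes of red cell precursors, and was at 53.8 to 133 CPM in MP libraries and at 14.3 to 33 CPM in LSK libraries. Blvrb encodes a reductase that acts on biliverdin, a product of heme breakdown, and was at 124 to 430 CPM in MP libraries and at 21.1 to 84.4 CPM in LSK libraries. Lrp1, a receptor that takes in heme bound to hemopexin, was at 13.7 to 39.6 CPM in MP libraries and at 1.75 to 11.0 CPM in LSK libraries. Abcb6, a porphyrin transporter, was at 5.02 to 13.7 CPM in MP libraries and at 0.898 to 5.19 CPM in LSK libraries, the only one of the 4 whose populations overlapped; 4.34% of all genes were higher without overlap. Single libraries decided these calls: that of Steap3 was lost without MP total 1 (edgeR adjusted p = 0.0567), MP total 2 (0.0568) or LSK total 2 (0.0629), and that of Blvrb without MP total 2 (0.0645) or LSK total 1 (0.0609). The call of Lrp1 was lost without MP polysomal 2 or 3, MP total 1, LSK polysomal 1 or 2 or LSK total 2 (0.0566 to 0.102). That of Abcb6 was lost without any library but MP polysomal 1 or LSK polysomal 2 (0.0522 to 0.132).

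Of 20 tested regulators (26 listed), 2 were higher in MP cells averaged over fractions and none was lower, against 2.72% and 7.37% of all genes. Alas1, which encodes the first enzyme of heme synthesis outside red cells, was at 485 to 1268 CPM in MP libraries and at 86.2 to 369 CPM in LSK libraries (2.01, SE 0.38, edgeR adjusted p = 0.0104). Eif2ak1, which encodes a kinase that slows translation when heme is short, was at 48.5 to 198 CPM in MP libraries and at 39.8 to 50.9 CPM in LSK libraries (1.60, SE 0.44, adjusted p = 0.0483), with overlap. The call of Alas1 was lost without MP total 1 (adjusted p = 0.0546), and that of Eif2ak1 without any single library but MP polysomal 1 (0.0883 to 0.137). Alas2, the red cell form of the heme enzyme, did not pass the test, with 4.39 to 12.6 CPM in MP libraries and 1.37 to 13.7 CPM in LSK libraries. None of 28 tested genes of iron-sulfur cluster assembly (32 listed) passed. The smallest p-values belonged to Cisd3, a mitochondrial iron-sulfur protein gene (−1.24, SE 0.38, adjusted p = 0.0714), and Hspa9, a mitochondrial chaperone gene (1.12, SE 0.41, adjusted p = 0.128). Medians of the 3 lists were 0.39, 0.42 and 0.23, beside −0.01 over all genes.

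**Figure D5:**
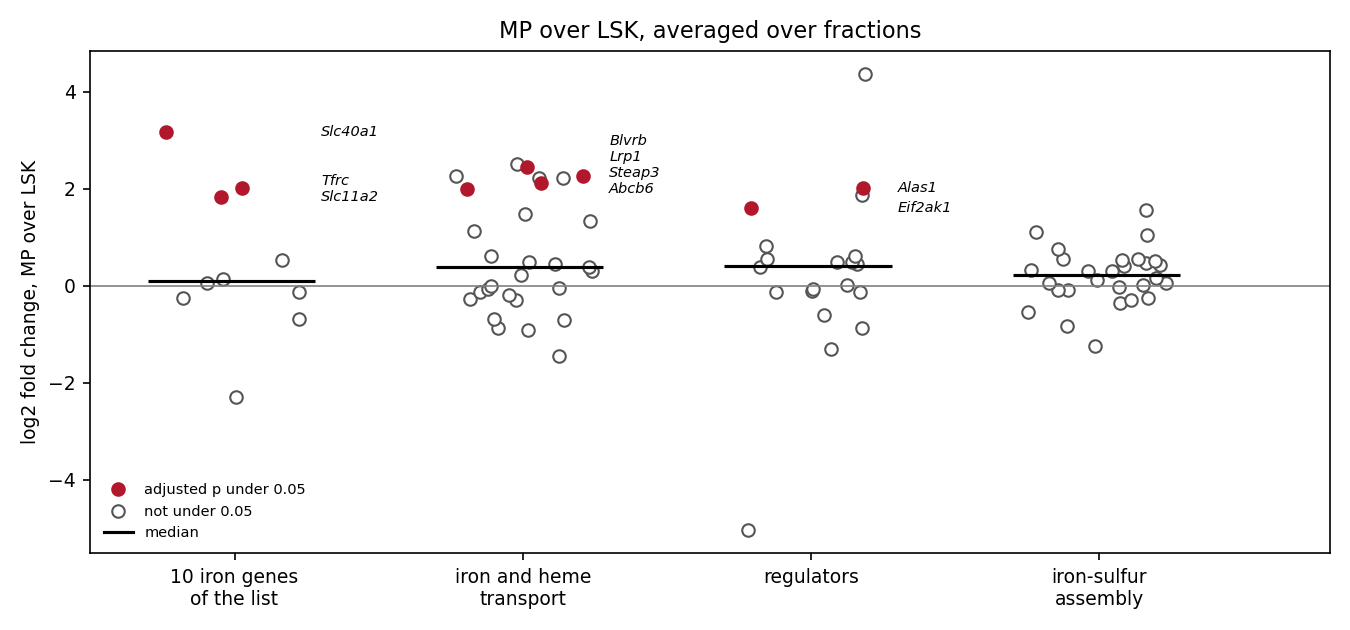
Log2 fold change of MP over LSK, averaged over fractions, for the 10 iron genes and 3 lists of other iron genes from the edgeR fit; filled points had an adjusted p under 0.05, bars are medians, and horizontal scatter is random. The 9 genes called are all higher in MP cells, and none is an iron-sulfur assembly gene.

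Of the other iron genes, Alas2 held a 5′ hairpin with 5 pairs and Bola3 one in the 3′ UTR. The polysomal over total log2 change of Alas2 was −0.07 in MP cells and 1.45 in LSK cells, and it was called in neither.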

How the data were processed

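RNA was measured in 9 libraries, grouped by their titles. Extraction was with Trizol and cDNA was amplified by the SMARTer method, per the labels' protocols. The authors deposited raw counts per gene symbol, and a table of normalised values on a log2-like scale used only as an alternative. STAR, featureCounts, bcl2fastq and DESeq2 and the builds GRCm38 and mm10 are listed in the submitters' processing notes. No version, annotation or strand setting was given in what was used here. The fits used edgeR 4.0.16 under R 4.3.3. A filter with a minimum count of 10 and a minimum total of 15 left 16426 genes, all 10 iron genes among them. Library sizes were scaled by TMM, and a quasi-likelihood model with 4 group means was fitted (5 residual and 4.58 prior degrees of freedom), from which 7 two-sided comparisons were made. Groups of 2 and 3 libraries are too small for exact permutation tests to pass the threshold. Standard errors were derived from the test statistic, and intervals hold at 95%. Depth was similar between libraries (27342343 to 34807735 counts), and the spread between them had a median biological coefficient of variation of 0.558. Alternatives were DESeq2 1.42.0, limma 3.58.1, other scalings and filters, blocks by library number and leaving out libraries. The procedure was tested on simulated data. The iron genes, lists and alternatives were chosen with earlier results of these data known, and the message length comparison was added after seeing the values. Named genes are the 10 iron genes, every other listed iron gene that passed in a comparison, the 2 with the smallest p in a list where none passed in the averaged comparison, and the 3 genes most like each called gene; Alas2 and Bola3 were named for their hairpins. Some items are not reported here.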

Additional observations from a re-analysis of the deposited data

How the results depend on the processing

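Directions of the called iron genes held in every alternative run, but most of their calls were lost in some. Slc40a1 was called in 10 of 19 alternatives in total RNA, 13 of 19 in polysomal RNA and 18 of 18 averaged over fractions. Tfrc was called in 10 of 19 in polysomal RNA and 10 of 18 averaged, and Slc11a2 in 14 of 18 averaged. The other iron genes called averaged over fractions, for which alternatives were added after seeing the data, kept their sign and were called in 16 (Alas1), 15 (Blvrb), 14 (Steap3), 10 (Lrp1), 8 (Abcb6) and 5 (Eif2ak1) of 18. With groups of 2 and 3 libraries, leaving out 1 leaves a lone library assumed to vary like the others. Depth was similar between libraries, and its part in the comparisons was not tested. The cause of the changes below was not tested unless the alternative itself holds fewer libraries or other genes.

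The genes called for MP over LSK in total RNA, 179 in all, were 328 with library totals alone, 1206 without a filter, 1471 by DESeq2, 850 by limma, 570 with the block by number, 0 with only the compared groups, 0 without both MP libraries numbered 1, and between 0 and 446 with single libraries left out. The iron genes called there, 1 in all, were 2 by DESeq2, 0 with only the compared groups, 0 without both MP libraries numbered 1, and at least 0 and at most 1 with single libraries left out. In polysomal RNA, 551 genes became 1558 without a filter, 1624 by DESeq2, 304 with only the compared groups, 197 without both LSK libraries numbered 2, 0 without both MP libraries numbered 1, and between 0 and 516 with single libraries left out. The 2 iron genes there became 4 by DESeq2, 1 with only the compared groups, 0 without both LSK libraries numbered 2, 0 without both MP libraries numbered 1, and between 0 and 2 with single libraries left out. Averaged over fractions, 1657 genes became 2636 without a filter, 2706 by DESeq2, 384 without both MP libraries numbered 1, and between 652 and 1480 with single libraries left out, and the 3 iron genes became 4 with library totals alone, without a filter, by DESeq2, by limma and with the block by number, each adding Hmox1 as lower, 1 without both MP libraries numbered 1, and between 1 and 3 with single libraries left out.

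For polysomal over total RNA, 0 genes in LSK cells became 547 without a filter, 433 by DESeq2 and 486 by limma, and 0 in MP cells became 22 without a filter and 30 by DESeq2. The interaction gave 4 without a filter and 1 by DESeq2. Averaged over populations, where edgeR called 0 and 2441 genes had an unadjusted p under 0.05, 843 were called without a filter, 765 by DESeq2, 462 by limma and 0 to 1 when 1 library was left out. No iron gene of the 10 was called in any of these. Requiring 4 rather than 5 pairs added Slc11a2 to the 4 iron genes with a hairpin.

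Whether the library numbers pair the samples could not be decided here, since same-numbered pairs differed in sign. Same-numbered polysomal and total libraries correlated in their deviations from the group mean at 0.457 for both LSK pairs and 0.445 for MP 1, and at −0.375 for MP 2. In a group of 2 these deviations mirror each other, so both LSK pairs give the same value by construction. Values across populations repeat in the same way, and few of them are independent. Across populations, same-numbered pairs were at 0.253 to 0.620 except those of MP polysomal 2, at −0.346 and −0.0575, and MP polysomal 3 was at 0.569 to 0.608 with the libraries numbered 2 of the other groups. With the replicate block by number, 570 genes were called in total RNA, 1 for polysomal over total averaged over populations, and with the block within population 1 for polysomal over total in MP cells and 1 averaged. The block left the calls of Slc40a1, Tfrc and Slc11a2 in place and added that of Hmox1 averaged over fractions (adjusted p = 0.0339), while Abcb6 and Eif2ak1 lost theirs (0.0582 and 0.0593). With the block, Ncoa4 in polysomal RNA between populations was 0.19 and Fth1 averaged was 0.037.

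Log2 changes that reversed all belonged to values that had not passed the test. For MP over LSK in total RNA, Slc25a37 was 0.26 without both LSK libraries numbered 2 and 0.012 without both MP libraries numbered 1, and ranged from −0.34 to 0.27 when 1 library was left out, while Hmox1 ranged from −2.90 to 0.069. In polysomal RNA, without both LSK libraries numbered 2, Fth1 was 2.22 and Ftl1 0.14, and Ncoa4 was 0.021 with DESeq2 size factors, 0.0060 without a filter, 0.021 by DESeq2 and 0.022 by limma. When 1 library was left out, Fth1 ranged from −1.77 to 2.22, Ftl1 from −0.95 to 0.15 and Ncoa4 from −0.50 to 0.86. Averaged over fractions, Fth1 was 0.28 by limma, 2.22 without both LSK libraries numbered 2 and 0.31 without both MP libraries numbered 1. Ftl1 was −0.16 with library totals alone, −0.011 by limma and −0.039 without both MP libraries numbered 1, and Slc25a37 was −0.10 with library totals alone. When 1 was left out, Fth1 ranged from −0.51 to 1.49, Ftl1 from −0.15 to 0.42, Ireb2 from −1.03 to 0.068 and Ncoa4 from −0.49 to 0.16.

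For polysomal over total RNA in LSK cells, leaving out 1 library gave −1.33 to 0.92 for Tfrc, −3.45 to 1.23 for Fth1, −2.44 to 0.026 for Ireb2 and −0.047 to 1.36 for Ncoa4. In MP cells Hmox1 ranged from −0.30 to 2.01, and averaged over populations Ireb2 ranged from −0.10 to 1.12. In the interaction, Fth1 was 0.0011, Slc25a37 −0.043 and Slc11a2 0.018 without both LSK libraries numbered 2. When 1 was left out, the interaction ranged from −0.47 to 0.25 for Slc40a1, −3.22 to 1.46 for Fth1, −1.20 to 0.17 for Slc11a2 and −0.023 to 1.41 for Ncoa4.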

Other observations

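A polysomal over total comparison averaged over populations, with all 5 polysomal and all 4 total libraries, gave the iron genes their narrowest intervals for the fractions. The log2 change was 1.25 for Aco1 (95% interval 0.33 to 2.16), 1.09 for Ncoa4 (0.23 to 1.94), 0.95 for Slc40a1 (0.24 to 1.66) and 1.11 for Tfrc (0.08 to 2.13), and none of these passed the test (edgeR adjusted p = 0.194, 0.225, 0.201 and 0.301). The value of Tfrc averages 2.34 in MP cells and −0.13 in LSK cells. Of the 10 genes 8 had a positive value, and Fth1 (−1.13) and Slc25a37 (−0.53) had a negative one. Usp24, a ubiquitin protease gene, and Herc2, a ubiquitin ligase gene whose product acts on iron-sensing proteins, had the smallest p-values among the other regulators, with 1.59 (SE 0.35, adjusted p = 0.109) and 2.12 (SE 0.48, adjusted p = 0.111). Herc2 was at 89.4, 214 and 163 CPM in MP polysomal RNA and 35.2 and 26.4 CPM in MP total RNA, against 143 and 39.2 CPM in LSK polysomal RNA and 27.2 and 21.3 CPM in LSK total RNA. Fam96b, a gene of cytosolic iron-sulfur assembly, had −1.20 (SE 0.36, adjusted p = 0.162).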
